A study of Bos taurus with 96 samples.

Results

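Interferon-stimulated genes are switched on together when a cell meets type I interferon, the signal that infected cells and some immune cells release. A cytosolic sensor detects foreign RNA, interferon is made and leaves the cell, and its receptor on neighbouring cells then activates transcription factors that raise a shared set of antiviral genes. Some sensors and transcription factors belong to that set themselves, so the response feeds itself, and fat and muscle cells as well as immune cells can mount it. The genes described here are a list of 9 well-known members of the set. They comprise the RNA sensors *IFIH1* and *DHX58*, the transcription factor *IRF7*, and the effectors *ISG15*, *MX1*, *MX2*, *RSAD2*, *IFI44* and *IFI6*. Members were found by matching each probe's accession to bovine RefSeq, or by the probe names in the study's own tables. A probe was found for 8 of the 9, out of 10653 genes named on the array in all, and *IFIH1* had none and is not analysed here.

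The study hybridised RNA from fat depots and longissimus dorsi muscle of cattle to 96 one-colour Agilent arrays, 4 to a slide on 24 slides. The fat came from Angus (ANG), Hereford (HER) and Wagyu x Angus (WAG) steers kept on pasture alone after weaning, with 4 arrays per breed in each depot and therefore 12 arrays per depot. The depots were intramuscular fat dissected from the longissimus (IMF), intermuscular fat (Inter), kidney fat (Kid), omental fat (Omen) and subcutaneous fat over the rump (SC). The longissimus muscle with its marbling in place (LD) gave 36 arrays. Of these, 24 were from steers on pasture after weaning (8 per breed) and 12 from steers that received a supplement in that period (4 per breed). All samples are labelled with 259 days in a feedlot, and the steers that gave the fat were about 26 months old. Further LD samples of both diets came from an earlier slaughter by the study's methods, and the labels do not say which. The fat depots came from shared steers, but the labels do not identify the animals, so depots were compared as separate samples.

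Values are log2 processed signals relative to the 75th percentile of the same array, so a value of 0 is that percentile. They compare 1 probe between samples and do not rank genes against each other. Each array received a set amount of total RNA, and in these whole-tissue samples fewer cells of a type and less RNA per cell cannot be told apart. Arrays of a group correlated with r between 0.93 and 0.99 over all probes, and no pair was identical. The probes of *ISG15*, *MX1*, *RSAD2*, *IRF7* and *IFI6* were well above background on all 96 arrays, those of *DHX58* and *IFI44* on 94, and that of *MX2* on 89. The second *ISG15* probe followed the first with r = 0.99 after the mean of each group was subtracted, the other *MX1* probes with r = 0.98 and 0.87, and the second *IRF7* probe with r = 0.90. A second *RSAD2* probe, well above background on 33 arrays, had r = 0.43. A second *DHX58* probe, well above background on 3 arrays, had r = 0.29. Neither was among the tested probes. The labelled tissues matched their defining genes. The summed signal of 10 adipocyte genes, in multiples of the array's 75th percentile, was 182 to 701 in IMF, at least 477 in the other depots and 13.6 to 116 in LD. The sum of 10 myofibre genes was 3086 to 5631 in LD, at most 2.54 in SC and 773 to 2569 in IMF, so the dissected IMF carried muscle RNA. In Inter it was 2.23 at the median and 628 on its highest array.

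The study set SC against the other fat depots and the muscle, and IMF against both SC and LD. IMF was lower than SC in 7 of the 8 genes, against 33.0% of all 34227 probes that were lower, and no gene was higher. The median difference over the 8 genes was -1.12 on the log2 scale, against -0.00398 over all probes. The IMF and SC arrays did not overlap at all in 5 genes (*RSAD2*, *ISG15*, *IFI44*, *DHX58* and *IRF7*), where 8.29% of all probes were lower without overlap.

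*RSAD2* encodes viperin, a radical-SAM enzyme that makes a nucleotide which stops viral RNA polymerases. Its lowest, median and highest values were -1.09, -0.45 and 0.03 in SC and -3.69, -2.94 and -2.41 in IMF. Every IMF array lay below every SC array, and the level in SC was 5.52-fold that in IMF (log2 difference -2.47 ± 0.15 SE, adjusted p = 1.19e-12). *ISG15* encodes a ubiquitin-like protein that is attached to other proteins. Its values ran from 0.10 through a median of 0.77 to 1.69 in SC and from -1.78 through -1.09 to -0.37 in IMF. These groups did not overlap either, and the SC level was 3.88-fold that of IMF (-1.95 ± 0.17 SE, adjusted p = 9.81e-10).

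*IFI44*, a GTP-binding-like protein of less settled function, ran from -2.85 through -2.17 to -1.43 in SC and from -4.17 through -3.65 to -2.90 in IMF. The log2 difference was -1.38 ± 0.17 SE (adjusted p = 1.39e-07), again without overlap. *DHX58* encodes LGP2, the helicase that modulates the RNA sensors, and had a median of -1.89 in SC and -2.83 in IMF (difference of means -1.12 ± 0.17 SE, adjusted p = 3.19e-06). *IRF7*, the transcription factor that drives production of interferon alpha, differed by the small but even amount of -0.78 ± 0.08 SE (adjusted p = 7.39e-09). Its range was 0.13 to 0.70 in SC and -0.80 to -0.09 in IMF.

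*MX1*, a dynamin-like GTPase that traps viral ribonucleoproteins, was lower in IMF by a log2 difference of -1.12 ± 0.21 SE (adjusted p = 5.38e-05), with 10 of 12 IMF arrays under the lowest SC array. *IFI6*, a small membrane protein of the endoplasmic reticulum and mitochondria, was lower by -0.79 ± 0.21 SE (adjusted p = 0.00251), and most of its arrays overlapped. *MX2*, the neighbour of *MX1* on the same chromosome and a related GTPase, had medians of -5.06 in SC and -5.39 in IMF. Its difference of -0.10 did not pass the test (95% interval -0.79 to 0.58, adjusted p = 0.802), but under the normexp background correction it was -0.41 and passed (adjusted p = 0.00524). It was also the dimmest probe, and 2 of the 12 SC arrays were not well above background for it.

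**Figure D1:**
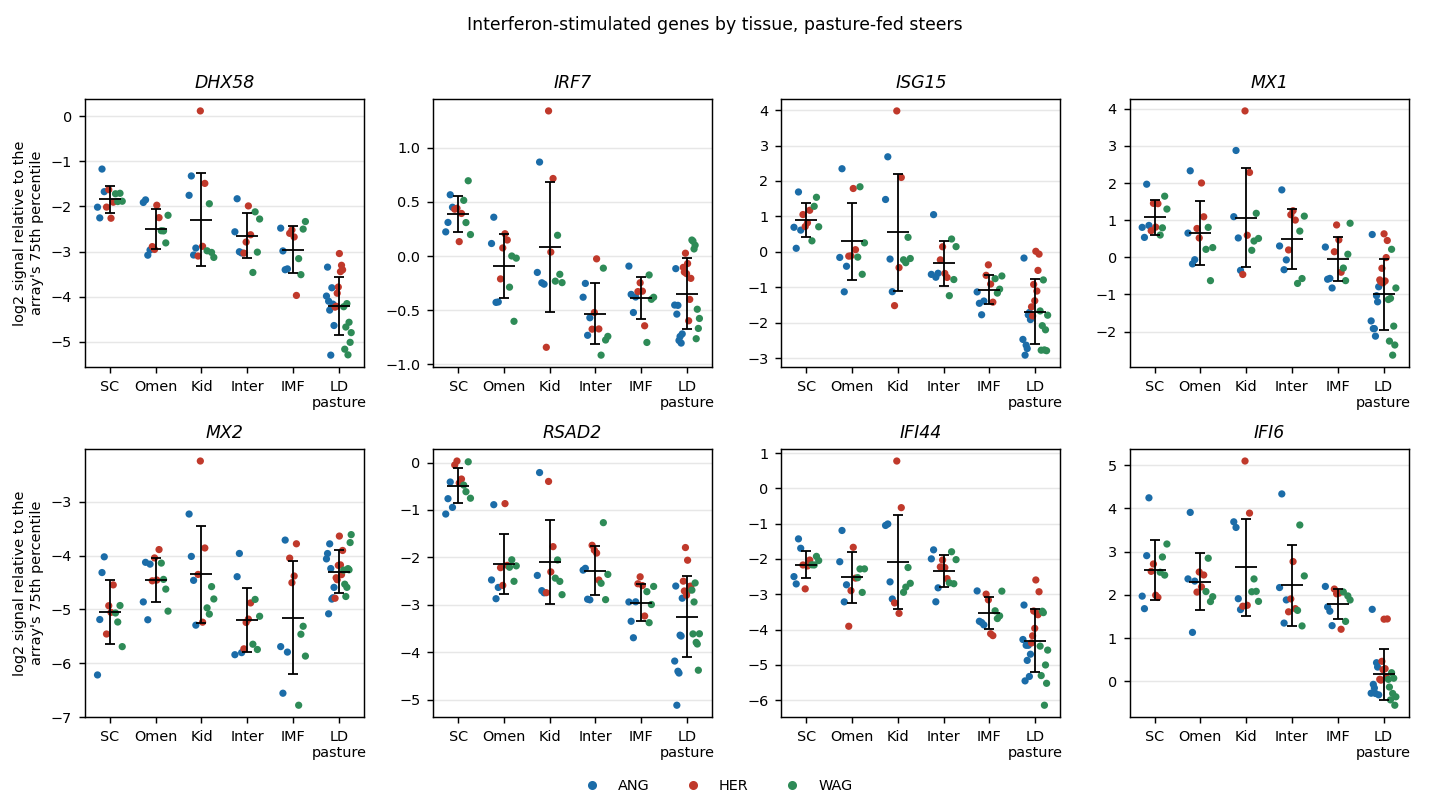
Values of the 8 genes on every pasture-fed array, 1 panel per gene, with tissue on the horizontal axis, the log2 signal relative to the array's 75th percentile on the vertical axis, a point per array and a bar at each tissue mean. RSAD2 in SC runs from -1.09 to 0.03 and stands apart from IMF (-3.69 to -2.41), and the Kid points of ISG15 spread from -1.52 to 3.98.

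The day on which a slide was scanned runs nearly along with this comparison. All 12 IMF arrays were scanned on day 3 and 11 of the 12 SC arrays on day 1. The 1 SC array of day 3 (slide 19, position 1) held the highest SC values of *IFI6* (4.25) and *MX2* (-4.02). A day 3 test of 12 IMF arrays against it, which passed for 5 genes, rests on that array and assumes that it varies as the IMF arrays do. With scan day as a term over all 96 arrays, all 8 differences stayed negative. Only *RSAD2* (-1.77, adjusted p = 2.45e-06) and *ISG15* (-1.39, adjusted p = 0.0223) passed. Markers of other cells moved with the contrast too. Of 9 macrophage genes 8 were lower in IMF, with a median difference of -1.83, and their summed signal was 21.7 at the median and at most 49.4 in IMF, and 66.0 at the median and at least 43.1 in SC. All 10 adipocyte genes were lower as well (median -1.34), and all 10 myofibre genes higher (median 10.23). Their part in the result was not tested.

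The means of the other fat depots lay between those of IMF and SC in *ISG15*, *MX1*, *DHX58* and *RSAD2*. In the other 4 genes at least 1 depot lay outside. *MX2* was above SC (-5.06) in Kid (-4.35) and Omen (-4.45), *IRF7* in Inter (-0.53) was below IMF (-0.39), and *IFI44* and *IFI6* in Kid (-2.09 and 2.64) stood just above SC (-2.16 and 2.59). A test over the 5 depots passed for 7 of the 8 genes, where 87.2% of all probes passed. *IFI6* had an adjusted p of 0.0909. With scan day as a term *MX1* (adjusted p = 0.239) and *DHX58* (0.0583) did not pass that test. Of 80 pairwise differences (8 genes in 10 pairs of depots, fitted together) 33 passed. With scan day as a term 16 did, and with slide as a random block 26. The counts by pair are those without these terms. IMF differed from Kid in 8 genes (60.4% of all probes), from SC in 7 (62.9%), from Omen in 4 (57.4%) and from Inter in 2 (63.2%). SC differed from Inter in 4 (44.5%), from Omen in 3 (42.0%) and from Kid in 2 (43.1%). Inter differed from Kid in 2 (20.8%) and from Omen in 1 (13.3%), and Kid from Omen in 0 (18.9%, limma). The order of the *ISG15* means was SC at 0.89, Kid at 0.55, Omen at 0.30, Inter at -0.32 and IMF at -1.06. Neighbours in that order did not differ beyond their spread, and IMF differed from SC, Kid and Omen but not from Inter (-0.74 ± 0.39 SE, adjusted p = 0.092). The order for *RSAD2* was SC at -0.49, then Kid, Omen and Inter at -2.09, -2.14 and -2.28, and IMF at -2.95. Here SC stood above each of the others, Kid, Omen and Inter did not differ from one another, and IMF was lower than all.

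Inter was lower than SC in 4 genes, and 27.3% of all probes were lower. *RSAD2* fell by 1.79 on the log2 scale (adjusted p = 4.55e-08) and *IRF7* by 0.92 (adjusted p = 8.57e-08), both with no overlap between 12 and 12 arrays, which held for 2.06% of probes. *ISG15* was lower by -1.21 (adjusted p = 8.33e-05) and *DHX58* by -0.80 (adjusted p = 0.00029). The difference in *IFI44* was -0.18, with a 95% interval of -0.52 to 0.17. Under the normexp background correction *IFI44* (-0.30, adjusted p = 0.0367) and *MX2* (-0.70, adjusted p = 1.76e-06) passed as well, and with scan day as a term *ISG15* did not (adjusted p = 0.0517), at a difference of -1.26. Of 9 macrophage genes 3 were higher in Inter and none lower, with a summed signal of 43.0 to 181 against 43.1 to 225 in SC and medians of 124 and 66.0. The adipocyte sum was 660 at the median in Inter and 892 in SC. Their part in the result was not tested. No scan day held both depots, since all Inter arrays were scanned on day 2, so for this pair day and depot cannot be told apart by a within-day value.

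Omen was lower than SC in 3 genes, against 25.3% of all probes, and higher in 1, against 20.5%. The lower genes were *RSAD2* (-1.65 ± 0.20 SE, adjusted p = 6.85e-07), *DHX58* (-0.65) and *IRF7* (-0.48). With scan day as a term only *RSAD2* passed of these, while *DHX58* stood at -0.22 (adjusted p = 0.638) and *IRF7* turned to 0.067 (adjusted p = 0.799). *MX2* was the higher one (0.60 ± 0.20 SE), but it was lower under the normexp background correction (-0.32, adjusted p = 0.00144) and read -0.42 within scan day 3, against a single SC array. Leaving out the ANG Omen array on slide 10 at position 4 raised the count of changed genes from 4 to 6 by adding *ISG15* and *MX1*. That array was the highest of its group in all 8 genes, and the scanner software marked 5528 of its spots as outliers, the most of any array. The 10 Omen arrays of scan day 3 met the same 1 SC array as IMF did, and the 1 gene past that test was *IFI6*, in which that array is the highest of SC.

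Kid was lower than SC in *RSAD2* alone (-1.60 ± 0.26 SE, adjusted p = 3.78e-05), where 22.4% of all probes were lower. *MX2* was higher by 0.71, which passed in the joint fit over the depots (adjusted p = 0.0369) but not in the fit of this pair, and *DHX58* differed by -0.45. The SD within Kid exceeded that within SC in all 8 genes, with 0.90 against 0.59 in *MX2* and 1.65 against 0.47 in *ISG15*. *ISG15* ran from -1.52 through a median of -0.20 to 3.98 in Kid, with 3 arrays above every SC array and 7 below every SC array. *IFI44* ran from -3.54 through -2.67 to 0.78. Leaving out the HER Kid array on slide 21 at position 1 added *DHX58* (-0.67, adjusted p = 0.016) and *IRF7* (-0.42, adjusted p = 0.021). Leaving out any of 6 other arrays added *MX2* as higher in Kid. These were the Kid arrays on slide 21 at positions 2 (ANG), 3 and 4 (WAG) and on slide 22 at position 3 (HER), and the ANG SC arrays on slides 17 and 19 at position 1. In the joint fit Kid was higher than IMF in all 8 genes. Kid and Omen differed in 0 genes also at an unadjusted p under 0.05 (limma), a threshold that 31.9% of all probes passed.

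**Figure D2:**
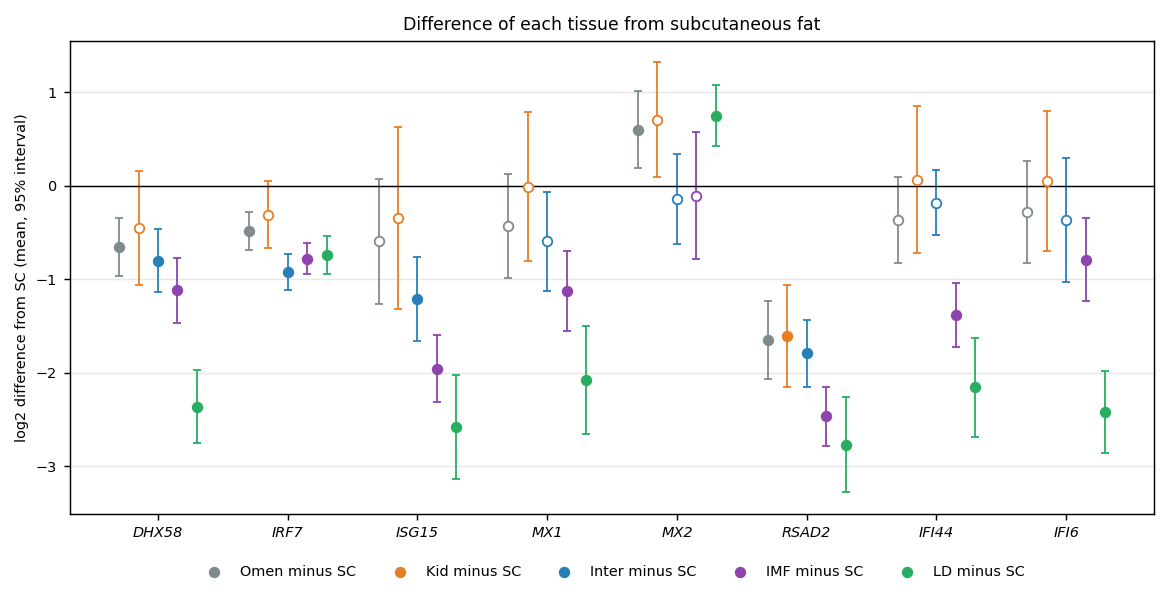
Mean log2 difference from SC for each of the 8 genes (horizontal axis) in the other fat depots and in pasture-fed LD (colours), with bars for the 95% interval and open points where the test was not passed. RSAD2 lies at or below -1.60 in every tissue shown, while in MX2 the differences are -0.10 in IMF and -0.14 in Inter and above 0 in Kid, Omen and LD.

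Muscle on pasture, set against the same SC arrays, was lower in 7 genes, with differences from -0.74 (*IRF7*) to -2.77 (*RSAD2*, 6.81-fold), where 40.3% of all probes were lower. *ISG15* ran from -2.92 through -1.78 to 0.02 in pasture LD and lay below SC by -2.58 ± 0.27 SE (adjusted p = 6.16e-11). The 24 LD and 12 SC arrays did not overlap in 4 genes (*ISG15*, *DHX58*, *RSAD2* and *IFI6*), as in 19.7% of all probes lower without overlap. *MX2* went the other way and was higher in LD by 0.75 ± 0.16 SE (adjusted p = 6.98e-05), among 42.6% of probes that were higher. It was also higher within scan day 1 (0.65, 8 LD and 11 SC arrays), and within scan day 3, with 1 SC array, it stood at -0.26. With the supplement arrays included (36 LD arrays) its difference was 0.36 and did not pass (adjusted p = 0.216). Of 9 macrophage genes 8 were lower in pasture LD than in SC, with a summed signal of 8.13 at the median and at most 16.6 against 66.0 and at least 43.1, and all 7 endothelial and 10 adipocyte genes were lower. Their part in the result was not tested.

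IMF differed from pasture LD in 6 of the 8 genes, where 75.3% of all probes did. It was higher in 5, where 12321 of all 34227 probes were higher, and lower in *MX2*, where 13441 were lower. *IFI6* showed the widest gap, from a median of 0.05 in LD to 1.93 in IMF (1.63 ± 0.18 SE, adjusted p = 3.09e-10), followed by *DHX58* (1.24), *MX1* (0.95), *IFI44* (0.77) and *ISG15* (0.63, adjusted p = 0.03). *MX2* differed by -0.86 ± 0.23 SE. *RSAD2* and *IRF7*, at 0.30 and -0.04, did not pass. For *RSAD2* the 95% interval was -0.21 to 0.81. Under the normexp background correction *IFI44* turned to -0.032 and 3 genes passed, and with slide as a random block 3 passed. Under that block the differences of *ISG15* (adjusted p = 0.165), *MX1* (0.0633) and *IFI44* (0.0727) stayed at 0.63, 0.95 and 0.77. Scan day moved the count the other way. Within scan day 3, with 12 IMF and 8 LD arrays, all 8 genes passed, *RSAD2* at 0.82 (adjusted p = 0.000604) and *IRF7* at 0.31 (adjusted p = 0.0025), and with scan day as a term 7 did (*RSAD2* 0.61, adjusted p = 0.0213). With the supplement arrays included (36 LD arrays) 2 genes passed. *ISG15* (0.26, adjusted p = 0.435), *MX1* (0.59, 0.0783), *IFI44* (0.46, 0.118) and *MX2* (-0.46, 0.165) did not. Of 9 macrophage genes 7 were higher in IMF than in LD, and all 10 adipocyte genes were. Their part in the result was not tested.

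The diet comparison asks whether muscle of steers given a supplement after weaning differed from muscle of steers on pasture alone. The pasture and supplement arrays may also differ in the share that came from the earlier slaughter, which the labels do not give, so the part of slaughter time was not tested. In LD, 5 of the 8 genes were higher with the supplement, where 5.69% of all probes were higher, and *MX2*, measured well above background on 7 of the 12 supplement arrays, was lower, where 5.53% were. The median difference over the 8 genes was 0.79, against 0.01 over all probes. *ISG15* ran from -1.59 through -0.78 to 1.68 with the supplement and from -2.92 through -1.78 to 0.02 on pasture. The groups overlapped, with 2 of 12 supplement arrays above every pasture array, and the means differed by 1.09 ± 0.25 SE or 2.12-fold (adjusted p = 0.00547). *RSAD2* ran from -3.46 through -2.18 to -0.71 and from -5.12 through -2.90 to -1.79, a difference of 1.02 ± 0.20 SE (adjusted p = 0.00124).

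*MX1* was higher by 1.07 ± 0.26 SE, *IFI44* by 0.94 ± 0.23 SE and *DHX58* by 0.64 ± 0.16 SE, all with overlapping groups. Under the normexp background correction *IFI44* (0.45, adjusted p = 0.0653) and *DHX58* (0.33, adjusted p = 0.157) did not pass. *IRF7* differed by 0.14 (95% interval -0.08 to 0.36) and *IFI6* by 0.59 (0.07 to 1.10, adjusted p = 0.13), neither past the test. No probe of the array separated the diets without overlap. The means of the 5 genes were higher with the supplement in each breed, those of *ISG15* by 0.80 in ANG, 1.10 in HER and 1.36 in WAG.

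*MX2* was lower with the supplement by -1.17 ± 0.24 SE (adjusted p = 0.00168), but 5 of the 12 supplement arrays, among them all 4 of HER, were not well above background, so the size of this difference and its p rest in part on signals that are only bounds. Under the normexp background correction the difference was -0.12 (adjusted p = 0.627), and within scan day 2 it was -0.19 (adjusted p = 0.740). The ANG means were -4.41 with and -4.42 without the supplement, and in WAG they were -5.33 and -4.25. The HER pasture arrays averaged -4.24. The 4 HER supplement arrays read -8.00, -6.78, -6.15 and -5.85, none well above background, while all 8 HER pasture arrays were. For each dim array the higher of its own signal and the lowest signal well above background of any probe was taken. On that basis the HER pasture level was 4.09-fold that with the supplement. This is a rough value, since such a floor need not be the detection limit of the *MX2* probe. The test of breed dependence passed for *MX2* alone of the 8 (adjusted p = 0.000727), against 16.2% of all probes. It draws in part on the signals of those 4 HER arrays, and whether it holds without HER was not tested. The test did not pass with slide as a random block or under the normexp background correction.

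**Figure D3:**
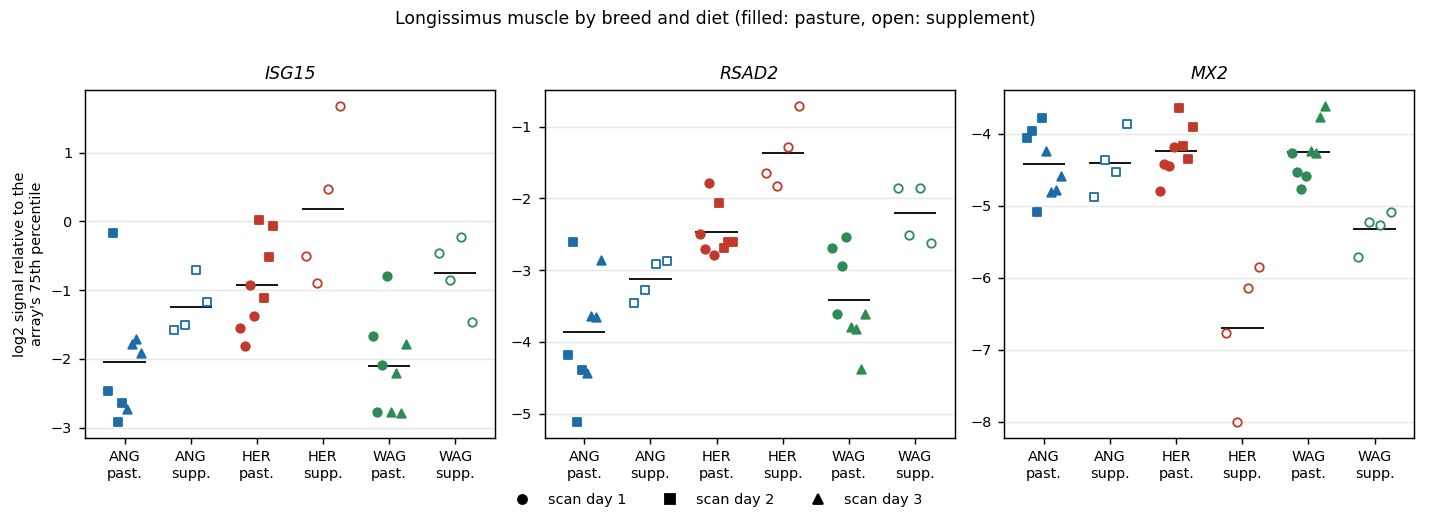
Values of ISG15, RSAD2 and MX2 in LD by breed and diet (horizontal axis; filled points pasture, open points supplement) as log2 signal relative to the array's 75th percentile, 1 point per array with bars at the means, colours for breeds and shapes for scan days. ISG15 and RSAD2 means are higher with the supplement in each breed, and MX2 reaches -8.00 in HER with the supplement while the ANG means stay near -4.41.

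Slides bear on this comparison. Each supplement group of 4 arrays filled a slide of its own, so slide and diet cannot be told apart within a breed. Arrays of a slide resembled each other in LD, with a correlation of 0.42, and with slide as a random block 0 of the 8 genes passed after adjustment, while 6 had an unadjusted p under 0.05 (limma). Over all 34227 probes 1 passed with that block, and 2782 had an unadjusted p under 0.05 (limma). The directions did not change, and the adjusted p of *ISG15* and *RSAD2* became 0.547 and 0.401. With scan day as a term *RSAD2* and *MX2* passed. Within scan day 1, which held HER and WAG arrays of both diets, 4 passed, *ISG15* among them (1.34, adjusted p = 0.025). Within scan day 2 both diets were present in ANG alone, since breed is a term of the diet fit and HER had pasture arrays only. There 0 passed after adjustment and 1 at an unadjusted p under 0.05 (limma), and *ISG15* differed by 0.80 between the ANG arrays of both diets. Leaving out any of the 36 arrays left 6 genes past the test.

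Among other cell markers in LD, 0 of 9 macrophage genes passed by diet (limma), and their summed signal was 5.15 to 12.1 with the supplement and 4.47 to 16.6 on pasture. Lower with the supplement were 5 of 10 adipocyte genes (summed signal 13.6 to 31.7 against 15.4 to 116), and higher were 6 of 7 endothelial genes (16.4 to 31.6 against 12.8 to 29.5). With slide as a random block none of either list passed, with 5 and 6 at an unadjusted p under 0.05 (limma). That unadjusted threshold was reached by 2782 of all 34227 probes. Their part in the result was not tested.

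Breed made no difference that passed in fat. Over the 60 fat arrays 0 of the 8 genes differed between ANG, HER and WAG by limma's moderated F test, where 3.22% of all probes did. At an unadjusted p under 0.05 there were 2, *MX2* and *RSAD2* (16.6% of probes). Within single depots 0 passed (limma), where 0.0526% of probes did in IMF, 0.0146% in Omen and 0 in Inter, Kid and SC. Unadjusted, 2 of the 8 passed in IMF, 1 in SC and 0 in the others. The share of all probes at that threshold within a depot is not given here, so these counts are not read further. The IMF minus SC difference depended on breed in none of the 8 (0.00584% of probes, 0 of the 8 also unadjusted). In LD on pasture 4 genes differed between breeds, *DHX58* (adjusted p = 0.0151), *RSAD2* (0.0146), *ISG15* (0.039) and *IFI44* (0.0457), where 14.7% of probes did. With scan day as a term *RSAD2* alone passed, and the adjusted p was 0.399 for *ISG15*, 0.175 for *DHX58* and 0.328 for *IFI44*. HER means were the highest in each of the 4 genes. *RSAD2* averaged -2.47 in HER, -3.42 in WAG and -3.86 in ANG, and the HER minus ANG difference of 1.39 ± 0.31 SE was the 1 pairwise value of that contrast to pass (adjusted p = 0.00885).

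Among the HER pasture arrays the slides differed in some of these genes. *ISG15* averaged -0.42 over the 4 arrays of slide 24 against -1.43 over the 3 HER arrays of slide 13, and *DHX58* (-3.30 against -4.12) and *IFI44* (-3.16 against -4.01) were likewise higher on slide 24. *RSAD2* was not, at -2.49 against -2.33. With slide as a random block 0 of the 8 genes differed between breeds, also at an unadjusted p under 0.05 (limma), and the count ranged from 2 to 5 as single arrays were left out. Without any 1 of the slide 24 arrays it was 2, with adjusted p-values for *ISG15* of 0.060 to 0.082, and likewise 2 without 3 ANG arrays of slide 2 (positions 1, 3 and 4), the HER array at position 4 of slide 13, the WAG array at position 1 of slide 14 or 3 WAG arrays of slide 20 (positions 1, 2 and 3).

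The genes also varied together from array to array within groups. After the mean of each tissue, breed and diet group was subtracted, the 21 pairs of genes without *MX2* correlated over the 96 arrays with r from 0.59 (*RSAD2* and *IFI6*) to 0.92 (*ISG15* and *MX1*), with a median of 0.75. The 7 pairs with *MX2* had r from 0.18 to 0.50. In the 60 fat arrays the first set ran from 0.64 to 0.91 and in the 36 LD arrays from 0.47 to 0.95. These points share slides, scan days and, for fat, steers.

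Within tissues, *ISG15* was related to each of the 7 other genes in each of 6 tissues, 42 relations in all, and 31 passed a permutation test of Pearson's r within groups after Benjamini-Hochberg adjustment over the 42. All 7 passed in Kid, with r from 0.83 (*MX2*, rho = 0.91) to 0.98 (*MX1*, rho = 0.99, adjusted permutation p = 0.000747). In LD 6 passed, *MX1* at r = 0.95 (rho = 0.93), at the smallest p that 100000 permutations can give (1e-05). Without the 2 arrays farthest in *ISG15* the *MX1* relation stood at 0.96 in Kid, 0.91 in Omen and 0.93 in LD, but at 0.68 in Inter, 0.57 in IMF and 0.34 in SC (0.83, 0.72 and 0.73 with all arrays). Omen had 6 past the test and Inter 5. IMF had 6, of which 5 were positive and 1, with *MX2*, was negative. SC had 1, *IFI44*, with r = 0.66 (0.47 without the 2 farthest arrays) and rho = 0.59. Its adjusted permutation p was 0.025 for r and 0.096 for rho. Some other relations that passed for r likewise did not pass for rho.

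*MX2* did not follow the others everywhere. Its r with *ISG15* was 0.83 in Kid, 0.38 in LD, and -0.55 in IMF (rho = -0.59, adjusted permutation p = 0.048 for r and 0.074 for rho). With the 2 farthest arrays left out, the count of relations past the test was 15 of 42, so the number rests in part on the extreme arrays, while the sign of r for pairs without *MX2* stayed positive outside SC. In LD, 6 of 7 relations also passed after the mean of each group on each slide was subtracted, with *MX1* at r = 0.96 (rho = 0.96) and *RSAD2* at r = 0.87 (rho = 0.86).

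**Figure D4:**
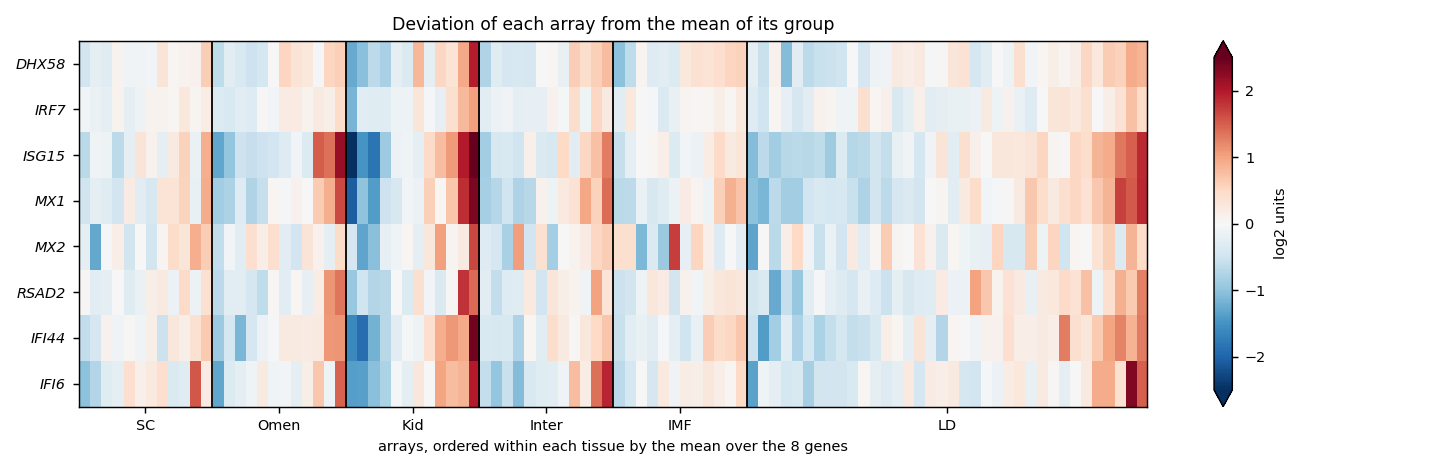
Deviation of each array (columns, ordered within each tissue) from the mean of its tissue, breed and diet group, for the 8 genes (rows), in log2 units by colour. Whole columns share a colour in most genes, and the far right of the Kid block holds the HER array that deviates by 1.97 on average.

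The spread was largest in Kid. The mean deviation of an array over the 8 genes had an SD within groups of 1.08 in Kid, 0.59 in Omen, 0.52 in Inter, 0.49 in LD, 0.33 in SC and 0.29 in IMF. In Kid, 4 of the 8 genes varied more than the 95th percentile of all named genes there (SD 1.12), *ISG15* most with 1.75. In Inter and Omen 1 did, and in IMF, SC and LD 0 did. The highest array of all was the HER Kid array on slide 21 at position 1, with *ISG15* at 3.98, *MX1* at 3.94, *IFI6* at 5.10, *IFI44* at 0.78 and *DHX58* at 0.12. It was the highest of its group in all 8 genes, 1.97 above the group mean on average. The lowest was another HER Kid array (slide 4, position 2), at -1.42, with *ISG15* at -1.52.

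Other high arrays came from different tissues and slides. The ANG Kid array on slide 17 at position 4 lay 1.18 above its group mean, the ANG pasture LD array on slide 2 at position 2 lay 1.20 above, the HER supplement LD array on slide 12 at position 4 lay 1.17 above and the ANG Omen array on slide 10 at position 4 lay 1.16 above. Each was above its group mean in all 8 genes. The labels do not tie arrays to steers, so whether high arrays of different depots share an animal was not tested.

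The genes whose deviations were most like the mean of the 8, among 10645 others, were *OAS1Y* (r = 0.94 over 96 arrays), *XAF1* (0.93), *RTP4* (0.90), *EPSTI1* (0.85), *IFI27* (0.82), *UBA7* (0.82), *DTX3L* (0.81), *GBP4* (0.78), *PARP9* (0.78) and *HERC6* (0.77). The median over all genes was -0.03, and 16 genes exceeded 0.7. Of the 10, 8 were on a list of other interferon effectors. *OAS1Y* belongs to the oligoadenylate synthetases, which sense double-stranded RNA, and *UBA7*, on none of the lists, is the activating enzyme that loads ISG15 onto its targets. In LD alone *OAS1Y* stood at 0.96 and *PARP9* at 0.58.

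**Figure D5:**
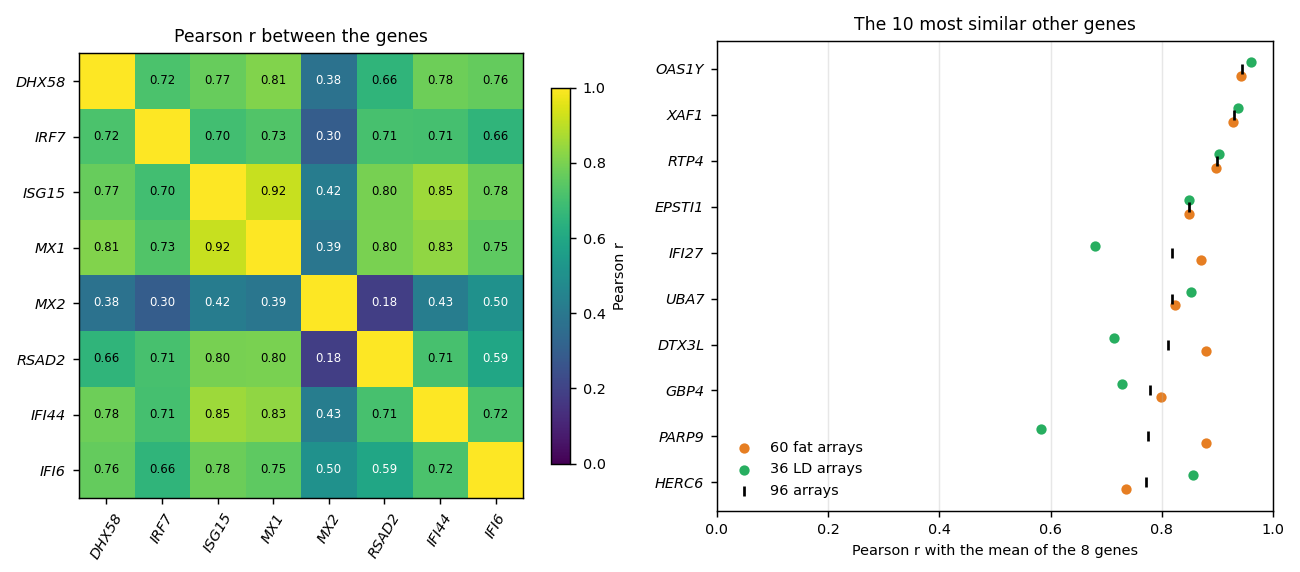
Left, Pearson r between the 8 genes over 96 arrays after group means were subtracted, by colour; right, r of the 10 most similar other genes with the mean of the 8, over 96 arrays (ticks), 60 fat arrays and 36 LD arrays (points). The MX2 row is darker than the others (r 0.18 to 0.50), and OAS1Y and XAF1 lie above 0.9 in both sets of arrays.

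Other genes of the pathway were taken from lists drawn up by function. Of 26 further effectors with a probe, 23 were lower in IMF than in SC and 1 was higher, *TDRD7* (0.32), with a list median of -0.86, where 33.0% of all probes were lower. *TRIM25*, the ubiquitin ligase that activates the sensor RIG-I, was lower by -1.24, *LGALS3BP* by -1.08 and *HERC5*, the ligase that attaches ISG15 in humans, by -0.98. Against SC, 16 of the 26 were lower in Inter (27.3% of all probes), 12 in Omen (25.3%), 5 in Kid (22.4%, so no larger a share than over all probes) and 24 in LD (40.3%). Of the 26, 1 was higher in each of Inter, Kid and LD and none in Omen. IMF was above pasture LD in 19 of the 26 and below in 2, where 12321 of all 34227 probes were higher and 13441 lower. With the supplement 9 of the 26 were higher in LD, where 5.69% of all probes were, and none lower (median 0.34). With slide as a random block 0 of the 26 passed, and 6 had an unadjusted p under 0.05 (limma), as had 2782 of all 34227 probes.

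Upstream, all 8 receptor and signalling genes were lower in IMF than in SC (33.0% of all probes), among them the receptor chains *IFNAR2* (-1.07) and *IFNAR1* (-0.63), the kinase *JAK1* (-1.08) and the transcription factor *IRF3* (-0.43). In Kid 2 of the 8 were lower and 1 higher, where 22.4% of all probes were lower. Of 9 sensors and adaptors 7 were lower and 2 higher in IMF, with the adaptors *TICAM1* at -0.70 and *MYD88* at -0.80 and the endosomal RNA receptors *TLR7* at -1.35 and *TLR3* at -0.89. By diet 0 of the 9 passed in LD (limma). Of 4 inhibitors of the pathway, *SOCS1* (-1.50) and *USP18* (-0.81), the protease that strips ISG15 from proteins, were lower in IMF, while *SOCS3* and *PIAS1* stood at 0.13 and 0.15 and did not pass.

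Genes of the interferon gamma response were examined beside these. Of 12, 8 were lower and 1 higher in IMF than in SC, where 33.0% of all probes were lower, with the immunoproteasome subunits *PSMB8* at -1.36, *PSMB9* at -0.81 and *PSMB10* at -0.64, and *IDO1*, the tryptophan-degrading enzyme, at -0.02 and not past the test. With the supplement 5 of the 12 were higher in LD (5.69% of all probes), *PSMB8* by 0.51, *IDO1* by 0.85, *PSMB9* by 0.39, *PSMB10* by 0.38 and *GBP4* by 0.55. *IFNAR2* (0.32), *IRF3* (0.30) and *PIAS1* (0.29) were also higher. With slide as a random block 0 of the 12 passed, and 3 had an unadjusted p under 0.05 (limma). None of the receptor, signalling or inhibitor genes passed (3 unadjusted, limma). That unadjusted threshold was reached by 2782 of all 34227 probes.

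The mean deviation of the 8 genes was set beside that of each marker list over the 96 arrays as a description. Its r was 0.66 with the interferon gamma list (0.76 in fat, 0.51 in LD) and 0.56 with the macrophage genes, which divided into 0.70 over the 60 fat arrays and 0.05 over the 36 LD arrays. For the genes of dendritic cells it was 0.67 in fat and -0.22 in LD. It was 0.15 for T and NK cell genes, 0.17 for B cell genes, -0.31 for adipocyte genes, -0.32 for myofibre genes, -0.05 for endothelial genes and 0.03 for mesothelial genes. Array quality moved little with it, at 0.09 for the 75th percentile, 0.15 for the share of probes above background and 0.22 for the number of outlier spots. These lists share arrays and scaling, and their part in the coordinated variation was not tested.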

How the data were processed

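Total RNA from each sample was hybridised to 1 array. The authors deposited scanner intensity values per spot from Agilent Feature Extraction 10.7.3.1, in which the processed signal is already background-subtracted, and a table of log2 values per probe. The study's methods name a mixed model for normalisation and log2 values as its result. The columns of the deposited table followed their own arrays with r of 0.991 to 0.999 and had medians from 6.65 to 8.96, so the arrays do not share a median in it, and whether it holds the values before or after that model stays unknown. Here log2 of the processed signal was taken minus the 75th percentile of the array, outlier spots were removed, and spots of a probe were averaged. A gene was represented by its brightest probe over all arrays. The *IFI44* probe is named by the study's tables alone. Of 43653 probes that are not controls 34227 were tested, and 62.7% of those were named.

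Groups were compared on their own arrays with limma 3.58.1 in R 4.3.3, with breed as a term in the fits over the depots and of diet and tissue as a term in that of breeds in fat, with Benjamini-Hochberg adjustment over all probes and a threshold of 0.05. "Lower", "higher" and "passed" refer to that threshold. Relations between genes were tested with 100000 permutations within groups in Python 3.11.15 (numpy 2.4.6, pandas 2.3.3). Methods were tested on simulated data. The number of arrays limits the precision. P-values measure the spread between these arrays, since the labels do not identify animals. From each further list at most 4 genes were named, those with the lowest adjusted p over the depots, and the supplement values of other genes were named after they were seen. The most similar genes were the 10 with the highest r. Effectors, receptors, sensors, inhibitors, interferon gamma genes and markers of macrophages, dendritic, T and NK, B, fat, muscle, endothelial and mesothelial cells formed the lists. The members and the lists were chosen with earlier results of these data known. The slide block for the other lists and the relations within slides were added after the data were seen. The normexp alternative used median spot and background signals. No sequences or coordinates are printed, because no table of the array's build was among the sources used here.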

Additional observations from a re-analysis of the deposited data

Results flagged for a closer look

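Single arrays stood far from the rest of their group of 4 to 8 in 12 of 168 combinations of gene and group, and chance alone gives about 1 in 20. The measure is the gap to the nearest array over the range of the group. The 12 came from 9 arrays, and 9 of the 12 were high. In ANG pasture LD the array on slide 2 at position 2 stood apart in *ISG15* (0.560, at -0.17 against -2.92 to -1.71 in the others) and *IFI6* (0.624). For *ISG15* the others were an ANG Inter array (0.937), a HER Omen array (0.904) and a WAG Kid array (0.835). The ANG Kid array on slide 17 at position 4 stood apart in *RSAD2* (0.856, at -0.21 against -2.75 to -2.38) and *IRF7* (0.904). *DHX58* was high in a WAG Kid array (0.877), and *IFI44* in an ANG IMF array (0.893). A HER IMF array on slide 18 at position 4 was low in *DHX58* (0.893) and *IFI6* (0.882), and a HER SC array was low in *IRF7* (0.845).

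The difference between diets in *MX2* depended on breed in LD (limma interaction test, adjusted p = 0.000727), with a difference of 0.01 in ANG and -1.07 in WAG. In HER the 4 supplement arrays were not well above background, so the pasture level of 4.09-fold theirs is only a rough value. The test draws in part on those signals, and whether it holds without HER was not tested. Each supplement group lay on a slide of its own.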

How the results depend on the processing

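Alternatives changed 1 choice at a time, except that scan day as a term was fitted over all 96 arrays and normexp started from other signals. Counts are of the 8 genes past the test. Of the counts recomputed, 145 stayed within 1.5 times and 26 did not. The deposited log2 table as given, which shifted the median over all probes to between 0.63 and 0.98 in the fat comparisons, gave 3 for IMF minus SC (7), 4 for Kid minus SC (1), 2 for Omen minus SC (4), 0 for breeds in LD (4) and 0 for diet by breed (1). Normexp put the median over all probes at -0.23 to -0.35 for the fat depots against SC and IMF minus LD. It was 0.11 for LD minus SC and 0.06 for diet. Normexp gave 3 for IMF minus LD (6), 3 for diet (6), 2 for breeds in LD and 0 for diet by breed. Scan day as a term gave 2 for IMF minus SC, 1 for Omen minus SC, 16 for the depot pairs (33), 2 for diet, 1 for breeds within depots (0) and 1 for breeds in LD. Within scan day 3 Omen minus SC gave 1, and within scan day 2 diet gave 0. Slide as a random block gave 3 for IMF minus LD and 0 each for diet, breeds in LD and diet by breed. All 36 LD arrays gave 2 for IMF minus LD, and a fit over all 96 arrays 2 for Kid minus SC. Of the 42 relations 15 passed without the 2 farthest arrays.

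A turn of sign was counted only where either of the fits compared passed, so turns between values that did not pass are left out. By that rule signs turned 14 times, 8 of them with the deposited table as given. Set to the 75th percentile of each array, that table turned none by the same rule. In IMF minus SC it put 1 gene above SC, without either fit of that gene passing. It gave 7 for IMF, 4 for Inter, 1 for Kid and 4 for Omen against SC and 6 for IMF minus LD. As given, Inter minus SC read 0.96 for *MX2*, 0.24 for *DHX58*, 0.86 for *IFI44* and 0.074 for *IRF7*, Kid minus SC 0.59 for *IRF7*, Omen minus SC 0.19 for *DHX58* and 0.34 for *IRF7*, and IMF minus LD 0.64 for *IRF7*. Normexp gave -0.32 for *MX2* in Omen minus SC and -0.032 for *IFI44* in IMF minus LD. Scan day as a term gave 0.067 for *IRF7* in Omen minus SC. Within scan day 3 *MX2* read -0.42 in Omen minus SC and -0.26 in LD minus SC, and *IRF7* 0.31 in IMF minus LD. The cause was not tested.

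Replicate numbers are slide positions, and arrays of 1 number did not deviate together (median r 0.009 over 302 pairs), so they share only a number. The replicate block gave 2 for Kid minus SC and 2 for breeds in LD. Leaving out each array gave 7 to 7 genes for IMF minus SC, 4 to 5 for Inter, 1 to 3 for Kid, 4 to 6 for Omen and 8 to 8 for LD minus SC, 5 to 6 for IMF minus LD, 7 to 8 over the depots, 6 to 6 for diet, 1 to 1 for diet by breed, 2 to 5 for breeds in LD, 0 to 0 for breeds in fat and 0 to 1 within depots (1 without the ANG IMF array on slide 18 at position 1). The methods' t-test gave the same counts after Benjamini-Hochberg adjustment, 7 for IMF, 4 for Inter, 1 for Kid, 4 for Omen and 8 for LD against SC and 6 for IMF minus LD, and without adjustment 7, 5, 2, 4, 8 and 6. Signal over background limits *MX2* most.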
